A study of Oryza sativa Japonica Group with 4 samples.

Results

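Alpha-amylases are the enzymes that cut starch inside its glucose chains, and rice carries a small family of genes for them. The 7 family members described here are Amy1A (Os02g0765600) on chromosome 2, Amy2A (Os06g0713800) on chromosome 6, Amy3D (Os08g0473900) and Amy3E (Os08g0473600) on chromosome 8, and Amy3A (Os09g0457400), Amy3B (Os09g0457800) and Amy3C (Os09g0457600) on chromosome 9. They were taken by identifier from the 37862 genes of a table of raw read counts. The 5 genes of subfamily 3 were set against the 2 genes of subfamilies 1 and 2. The 7 genes were chosen with the difference between these libraries already known, so their counts and fold changes are given as a description and no member was tested for its own sake. The libraries came from young inflorescences (panicles) of the japonica rice cultivar TP309, 0.1 to 0.5 cm long. OsbZIP47KD panicles (n = 2) came from transgenic line 14, in which a maize ubiquitin promoter drives a hairpin RNA against the 3′ UTR of OsbZIP47, a bZIP transcription factor gene. WT panicles (n = 2) came from wild-type plants of the same cultivar. Each library was a pool of panicle tissue and all transgenic tissue came from line 14, so an effect of that line and an effect of the knockdown cannot be told apart.

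The subfamilies differ in how they are known to be controlled. In germinating rice grain, gibberellin from the embryo switches on Amy1A, a main enzyme of the aleurone. Amy3D and Amy3E are known from cultured rice cells and embryos as genes that sugar represses and that carbon starvation releases, through a MYB factor that binds a short sugar response element in the promoter.

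The raw counts summed to 3839165 and 4063036 in the OsbZIP47KD libraries and to 5611969 and 5100799 in the WT libraries. Values are counts or CPM, counts scaled to one common library size after TMM normalization. A gene is said to rise or fall, or to pass the test, where the adjusted p of edgeR's quasi-likelihood test over all tested genes was under 0.05. OsbZIP47 (Os06g0265400), the target of the hairpin, showed 1003 and 919 reads in the libraries that carry the OsbZIP47KD label, against 471 and 261 in WT, a log2 fold change of 1.77 ± 0.25 (SE), edgeR adjusted p = 0.0141. Leaving out OsbZIP47KD replicate 1 gave an adjusted p of 0.0969, and leaving out OsbZIP47KD replicate 2 gave 0.0672. Reads of the hairpin transgene can count toward this gene, so its total does not check the labels, and every direction below rests on the labels of the libraries. Of 7 identifiers taken for inflorescence and spikelet genes, 7 had counts in every library, with summed levels of 709 and 410 CPM in OsbZIP47KD and 745 and 659 CPM in WT. OsAPO1 (Os06g0665400) lay higher in OsbZIP47KD, at 24.0 and 35.3 CPM against 8.29 and 12.9 CPM in WT. Os03g0752800 lay lower, at 179 and 56.8 CPM against 241 and 222 CPM. Os03g0753100 also lay lower, at 40.47 and 13.6 CPM against 53.9 and 40.54 CPM. The groups of the others overlapped, and no gene of this list passed the test. Of 4 taken for green leaf, the summed level was 59.8 and 80.9 CPM in OsbZIP47KD, against 141 and 204 CPM in WT. Both chlorophyll-binding protein genes of this list lay lower in OsbZIP47KD, OsCAB1R (Os09g0346500) with a log2 fold change of -2.40 and an edgeR adjusted p = 0.00357, and CAB2R (Os01g0600900) with -1.23 and an edgeR adjusted p = 0.121. The other 2 did not, Os12g0274700 with a log2 fold change of 0.86 and Os01g0869800 with 0.15, and neither passed. Of 4 taken for the tapetum of the anther, the summed level was 5.48 and 19.3 CPM in OsbZIP47KD and 4.15 and 5.96 CPM in WT, with 2 and 0 of the 4 at no count in OsbZIP47KD replicates 1 and 2 and 2 and 1 in WT replicates 1 and 2. Of 4 taken for seed storage proteins, it was 11.0 and 16.5 CPM in OsbZIP47KD and 16.8 and 14.7 CPM in WT. Less RNA per cell and fewer cells of a type cannot be told apart in such pools.

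Amy3D was the alpha-amylase gene with the most counts in WT panicles, and it lost most of them in OsbZIP47KD. It had 18 and 5 counts in the OsbZIP47KD libraries, against 205 and 155 counts in the WT libraries. In CPM, the values were 4.70 and 1.19 in OsbZIP47KD and 38.6 and 30.8 in WT, so that the groups did not overlap and the lower WT library stood well above the higher OsbZIP47KD library. The mean was 2.95 ± 2.48 CPM in OsbZIP47KD and 34.7 ± 5.54 CPM in WT (SD, n = 2 each). On the log2 scale the fitted fold change was -3.57 (standard error 0.49), that is, 11.9-fold lower in OsbZIP47KD. The replicates of OsbZIP47KD lay far apart in proportion, and the fold change was -4.89 with OsbZIP47KD replicate 1 left out and -2.88 with OsbZIP47KD replicate 2 left out. Of the 4 leaf genes, OsCAB1R and CAB2R were also lower in both OsbZIP47KD libraries and the other 2 were not. The part of leaf tissue in the level of Amy3D was not tested.

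Amy3E, the direct neighbour of Amy3D among the gene models of RefSeq, went the other way. It had 8 and 22 counts in the OsbZIP47KD libraries and 0 and 0 counts in the WT libraries. The level in OsbZIP47KD was 2.09 and 5.25 CPM, or 3.67 ± 2.23 CPM (SD, n = 2), and the groups did not overlap. The gene missed the expression filter of the fit, which left 2 of the 7 genes tested, and its ratio comes from pooled counts. With WT set to a floor of 3 counts over both libraries, the 30 counts of OsbZIP47KD were 13.6-fold higher per library total. The exact 95% counting interval, which uses no floor, reaches down to 10.4-fold. This floor ratio was 19.3-fold without OsbZIP47KD replicate 1, 7.44-fold without OsbZIP47KD replicate 2, 6.46-fold without WT replicate 1 and 7.10-fold without WT replicate 2. The last 2 values follow from the floor alone, which stayed at 3 counts over a smaller WT total, and show nothing about Amy3E. The tapetum genes were also highest in OsbZIP47KD replicate 2, the library with most Amy3E counts. TDR (Os02g0120500), a bHLH factor gene needed for tapetum development, had 4 and 37 counts in OsbZIP47KD and 0 and 4 in WT. The groups of the other tapetum genes overlapped. Os08g0131100 had 17 and 35 counts in OsbZIP47KD and 21 and 23 in WT. Os04g0599300 had 0 and 6 against 0 and 0, and Os11g0582500 had 0 and 3 against 1 and 3. The part of such tissue in Amy3E was not tested. These intervals and floors cover counting error only, since the 2 libraries of a group were pooled and their spread left out. They take each count as independent, and the labels name no molecular identifiers. Many genes with few counts had even counts only, such as Amy3E (8 and 22 in OsbZIP47KD) and BMY2 (6 and 6 in WT). Reads were sequenced in pairs, and whether both reads of a pair were counted was not tested. Counts that come in pairs would make the intervals given here and below too narrow.

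**Figure D1:**
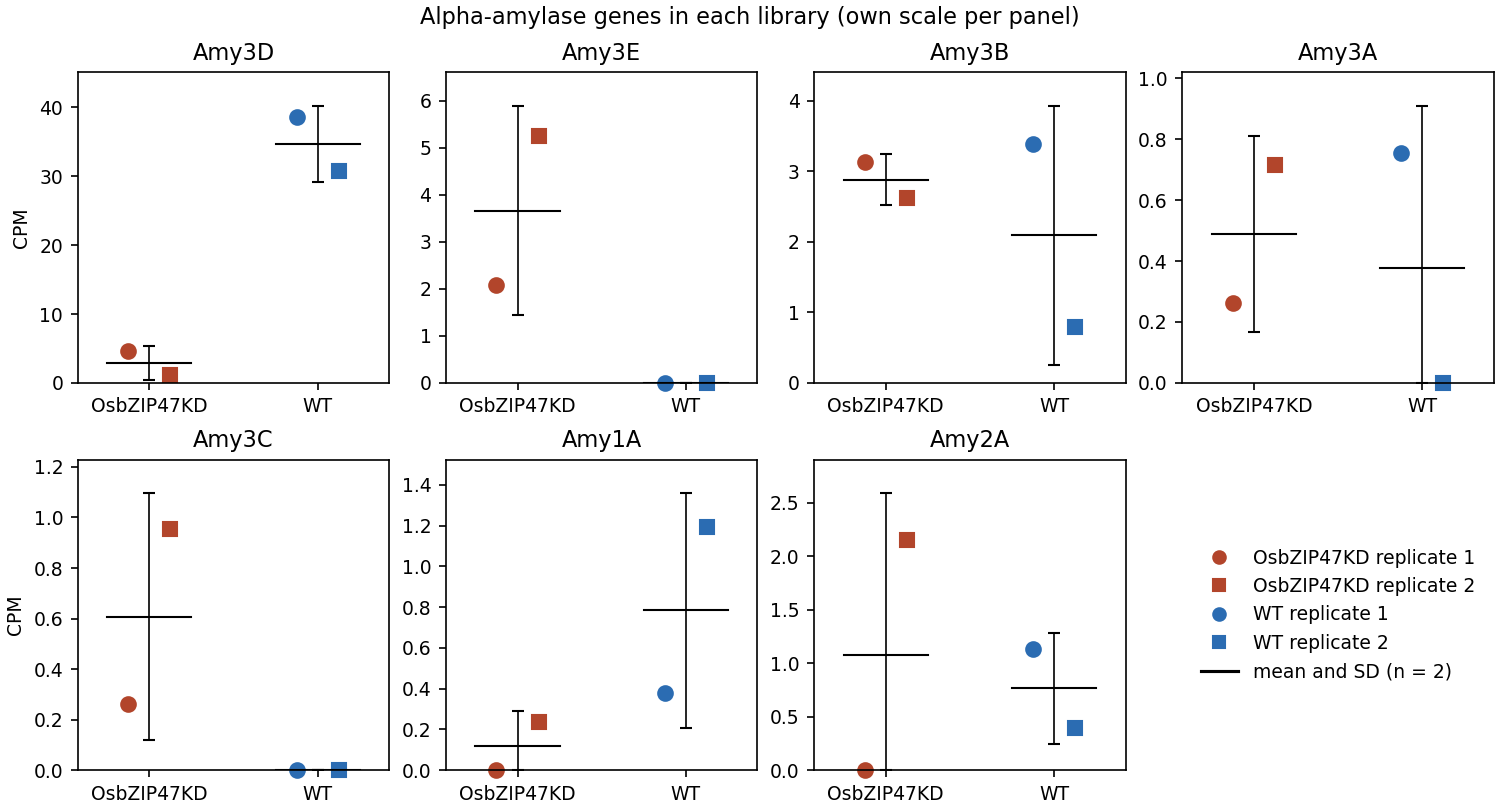
CPM of each of the 7 alpha-amylase genes in the 2 OsbZIP47KD libraries (red) and the 2 WT libraries (blue), circles for replicate 1 and squares for replicate 2, with a linear axis of its own in each panel. Lines and bars are the mean and SD (n = 2), with bars ended at 0. Amy3D lies at 4.70 and 1.19 CPM in OsbZIP47KD against 38.6 and 30.8 CPM in WT, whereas Amy3E is seen only in OsbZIP47KD, at 2.09 and 5.25 CPM.

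The 3 genes of chromosome 9 were low in all libraries. Amy3B had 12 and 11 counts in OsbZIP47KD and 18 and 4 counts in WT, which is 3.13 and 2.62 CPM against 3.39 and 0.795 CPM. The OsbZIP47KD values lay between the WT values, so the groups overlapped. Its fitted log2 fold change of 0.45 (standard error 0.89) was smaller than its error, and it was -0.28 when WT replicate 2 was left out and 1.81 when WT replicate 1 was. Amy3A had 1 and 3 counts in OsbZIP47KD and 4 and 0 counts in WT, a ratio of 1.36 per library total with an exact 95% counting interval of 0.253 to 7.28. No difference of Amy3A was detectable at this depth. Amy3C had 1 and 4 counts in OsbZIP47KD and none in WT, 2.26-fold higher against the floor of 3 counts, with a counting interval that reaches down to 1.24-fold. Without WT replicate 1 this floor ratio was 1.08-fold and without WT replicate 2 it was 1.18-fold, again because the floor stayed at 3 counts over a smaller WT total. The counts of Amy3C were the same in all 4 libraries as those of the neighbouring model Os09g0457532, so its reads cannot be assigned to Amy3C alone. Such identity was found for 311 of 34451 pairs of adjacent models in the table (0.903%, among models with 5 counts or more in all). The next model before Amy3B, Os09g0457700, had 16 and 9 counts in OsbZIP47KD and 18 and 6 counts in WT, which came near the counts of Amy3B without matching them. The model after Amy3B, Os09g0457833, had at most 4 counts in any library. The model before Amy3A, Os09g0457250, had 15 and 18 counts in OsbZIP47KD and 30 and 27 counts in WT and did not pass the test (edgeR adjusted p = 0.810).

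Amy1A and Amy2A, the genes outside subfamily 3, were close to the limit of detection. Amy1A had 0 and 1 counts in OsbZIP47KD and 2 and 6 counts in WT, a ratio of 0.170 with an exact 95% counting interval of 0.00382 to 1.26, so that the interval includes no difference although the groups did not overlap. Amy2A had 0 and 9 counts in OsbZIP47KD and 6 and 2 counts in WT, with a ratio of 1.53 and an interval of 0.522 to 4.54. The OsbZIP47KD replicates of Amy2A lay on either side of the WT replicates. The summed counts of Amy1A and Amy2A were 0 and 10 in OsbZIP47KD, against 8 and 8 in WT.

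Across the family, 4 of the 7 genes had groups that did not overlap, Amy1A and Amy3D lower and Amy3C and Amy3E higher in OsbZIP47KD. Among all 36702 genes with a count, the groups did not overlap in 41.9%, lower in 17.6% and higher in 24.3%. At an adjusted p under 0.05 the fit called 1 of the 2 tested members, Amy3D, as lower, while it called 0.649% of the 25289 tested genes in either direction, 0.522% as lower and 0.127% as higher. The 5 members under the filter were Amy1A, Amy2A, Amy3A, Amy3C and Amy3E. Since the members were chosen on this contrast, nothing is read from these shares.

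Summed over the 7 genes, alpha-amylase reached 10.4 and 13.1 CPM in OsbZIP47KD, against 44.3 and 33.2 CPM in WT. Without Amy3D, the sum of the other 6 genes was 5.74 and 11.9 CPM in OsbZIP47KD and 5.66 and 2.38 CPM in WT. The lower family total thus went with Amy3D, since the summed rest of the family was at least as high in OsbZIP47KD as in WT. In OsbZIP47KD, Amy3D made up 45.0% of the 40 family counts of replicate 1, with a 95% Clopper-Pearson interval of 29.3% to 61.5%, and 9.09% of the 55 counts of replicate 2, with an interval of 3.02% to 20.0%. In WT it made up 87.2% of 235 counts in replicate 1, with an interval of 82.3% to 91.2%, and 92.8% of 167 counts in replicate 2, with an interval of 87.8% to 96.2%. Amy3E took 20.0% (interval 9.05% to 35.6%) and 40.0% (interval 27.0% to 54.1%) of the family counts in OsbZIP47KD replicates 1 and 2. In WT it had 0 of 402 counts, which allows a share of up to 0.746% by the limit of 3 counts, and the Clopper-Pearson interval ends at 0.913%. Amy3E was thus the most counted member in OsbZIP47KD replicate 2 and Amy3D in the other 3 libraries. These are shares of counts and were not corrected for gene length.

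**Figure D2:**
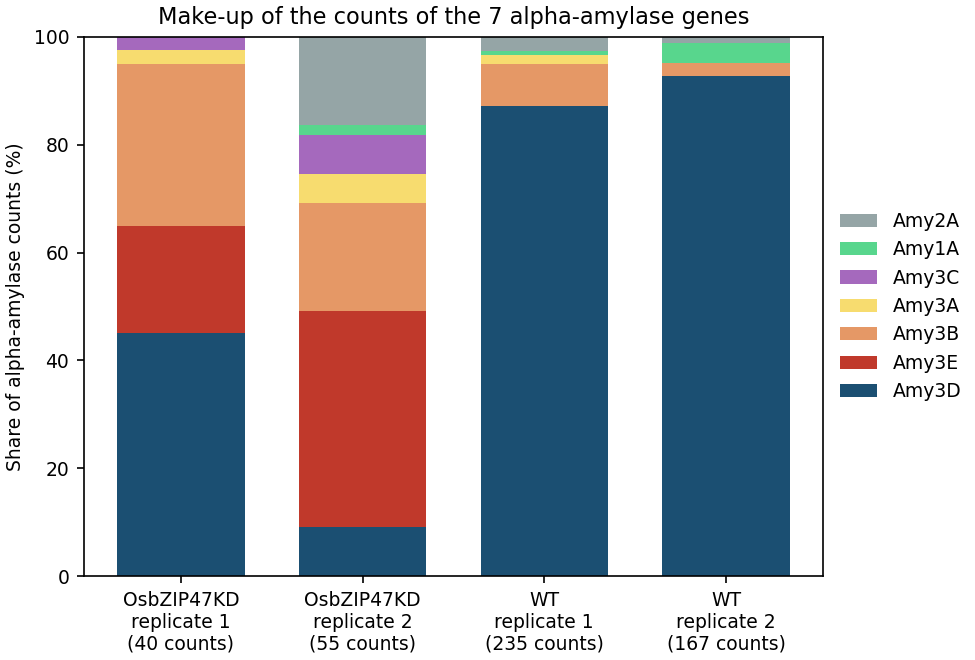
Share of each alpha-amylase gene in the summed counts of the 7 genes, in percent, with 1 bar per library and the number of counts under each bar. Amy3D (dark blue) fills 45.0% and 9.09% of the OsbZIP47KD bars but 87.2% and 92.8% of the WT bars. Amy3E (red) appears at 20.0% and 40.0% in OsbZIP47KD and in no WT bar.

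Gene models beside the members were examined because neighbours may share reads. Of 44 models within 5 identifiers of a member, 31 were tested, 3 fell and none rose, beside 0.522% and 0.127% of all tested genes. At an unadjusted p under 0.05, 5 were lower and 2 higher, beside 7.27% and 6.85% of all tested genes. DESeq2 called 3 lower and 0 higher, beside 1.18% and 0.55% of all, and edgeR's exact test called 3 lower and 0 higher, beside 1.74% and 1.4%. The 3 that fell lie at Amy3D and Amy1A. ERF104 (Os08g0474000), the ethylene response factor gene after Amy3D, had 45 and 30 counts in OsbZIP47KD, against 1064 and 517 counts in WT. Its log2 fold change was -4.01 ± 0.40 (SE), at an edgeR adjusted p = 0.00792, and the adjusted p became 0.0691 when OsbZIP47KD replicate 1 was left out and 0.129 when OsbZIP47KD replicate 2 was. Os08g0473800, the model before Amy3D, had 10 and 3 counts in OsbZIP47KD and 166 and 97 counts in WT. The log2 fold change of Os08g0473800 was -3.93 ± 0.55 (SE), at an edgeR adjusted p = 0.0102. ERF103 (Os02g0764700), another ethylene response factor gene and the second model before Amy1A, had 10 and 3 counts in OsbZIP47KD and 174 and 98 counts in WT, with a log2 fold change of -3.98 ± 0.55 (SE), edgeR adjusted p = 0.0102. The counts of ERF103 and Os08g0473800 differed by at most 8 in any library, so these 2 models may not be separate measurements.

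Between Amy3E and Amy3D the RAP identifiers place 2 models, Os08g0473650 with 0 and 8 counts in OsbZIP47KD and 2 and 0 counts in WT, and Os08g0473800. The direction therefore turned within a run of 4 adjacent identifiers. The model before Amy3E, Os08g0473200, had 159 and 221 counts in OsbZIP47KD and 156 and 278 counts in WT and did not pass the test (adjusted p = 0.869 from edgeR). Further along, Os08g0474400 had 2 and 28 counts in OsbZIP47KD and none in WT, and was under the filter like Amy3E. Around Amy1A, the adjacent models Os02g0765400 and Os02g0765800 had at most 3 counts in any library. Around Amy2A, Os06g0713600 had 42 and 17 counts in OsbZIP47KD and 77 and 49 counts in WT, and Os06g0713900 had 103 and 102 counts in OsbZIP47KD and 131 and 149 counts in WT. Neither passed the test (adjusted p = 0.590 and 0.927 from edgeR).

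**Figure D3:**
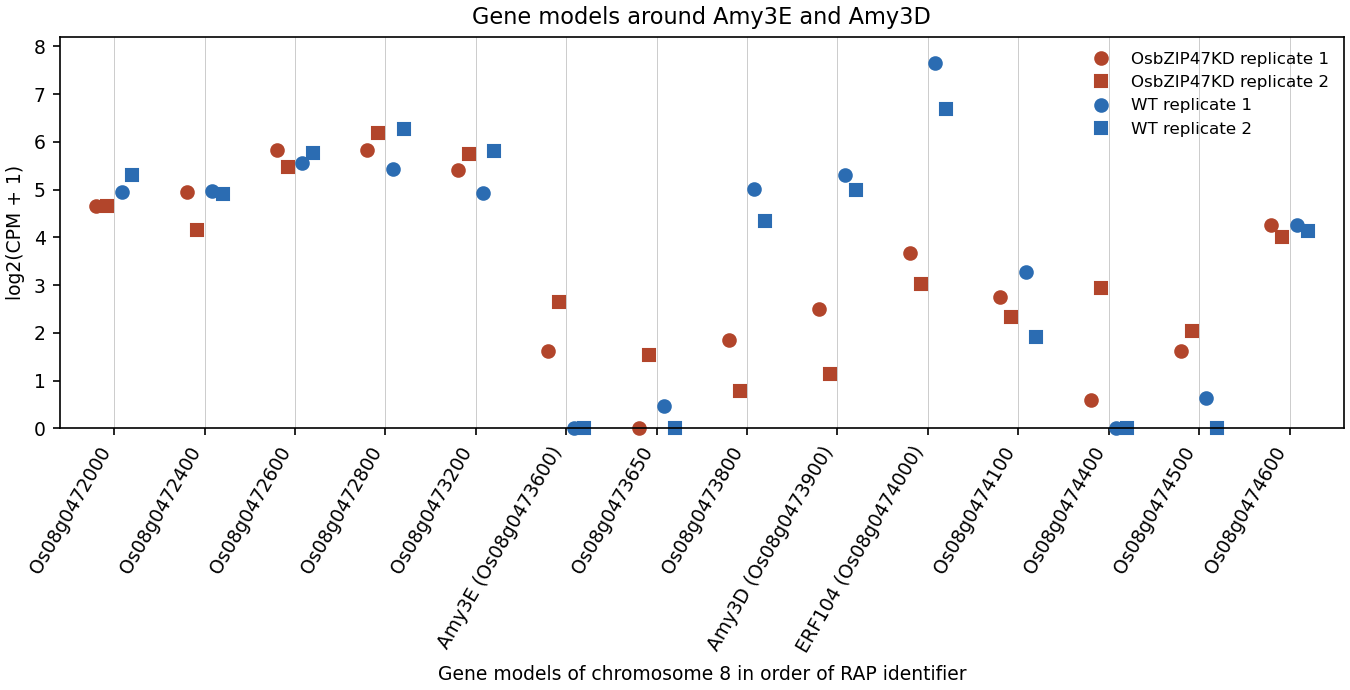
Level of the 14 gene models from the fifth before Amy3E to the fifth after Amy3D, in order of RAP identifier on the horizontal axis, as log2(CPM + 1) in each OsbZIP47KD library (red) and WT library (blue). Os08g0473800, Amy3D and ERF104 lie lower in both OsbZIP47KD libraries, Amy3E lies at 0 in both WT libraries, and the 5 models before Amy3E lie between 4 and 7 on this scale in all libraries.

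The genes whose pattern over the 4 libraries came nearest to that of Amy3D were sought among tested genes that the supplement of the study names, which are genes the study selected on these samples. The measure was the Euclidean distance of log2 CPM centred over the libraries. The nearest was ERF103 (distance 0.391), followed by OsWRKY71 (0.628), ERF104 (0.880), pwsi18 (1.09) and OsBAT1 (1.22). OsWRKY71 (Os02g0181300), a WRKY factor known in aleurone cells as a repressor of gibberellin-induced alpha-amylase, had 179 and 82 counts in OsbZIP47KD, against 1771 and 1046 counts in WT. The gene pwsi18 encodes a protein known to be induced by water stress. OsWRKY71 did not pass the test (adjusted p = 0.0887 from edgeR). In these 5 genes, as in Amy3D, OsbZIP47KD replicate 2 was the lowest library, which their choice by nearness to Amy3D makes likely. For Amy3B, the nearest were OsbHLH046 (0.621), SPL19 (0.817), OsANT4 (0.844), GA2OX7 (0.853) and ATG8E (0.858). Each of these 5 was lowest in WT replicate 2, as was Amy3B, which again goes with their choice by nearness.

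Among 4 other listed genes of starch breakdown, the dikinase gene OsGWD1 fell in OsbZIP47KD. OsBamy2, the one listed beta-amylase gene above the expression filter, did not pass the test. Genes of starch breakdown outside this list were not examined. The 4 listed genes were those that the supplement of the study annotates as such, which the study had chosen on these samples, so their directions are not independent evidence. Of the 2 that were tested, 1 fell and none rose, beside the 0.649% of all tested genes. OsGWD1 (Os06g0498400), the dikinase that phosphorylates starch and so opens the granule to degradation, had 327 and 409 counts in OsbZIP47KD, against 1185 and 1059 counts in WT. It was at 91.5 ± 8.62 CPM in OsbZIP47KD and 217 ± 9.14 CPM in WT (SD, n = 2 each), and the gap between the groups was much wider than the spread within them. Its log2 fold change was -1.25 ± 0.18 (SE), at an edgeR adjusted p = 0.0108, with an adjusted p of 0.0646 without OsbZIP47KD replicate 1. OsBamy2 (Os03g0141200), a beta-amylase gene, whose product releases maltose from the ends of starch chains, had 42 and 94 counts in OsbZIP47KD and 273 and 177 counts in WT. With a log2 fold change of -1.37 ± 0.36 (SE), edgeR adjusted p = 0.120, OsBamy2 did not pass. It did pass with edgeR's exact test (adjusted p = 0.0229) and with no filter (0.00448), but not with DESeq2 (0.0657). The beta-amylase gene BMY2 (Os07g0543300) had no count in OsbZIP47KD and 6 and 6 counts in WT. With OsbZIP47KD set to a floor of 3 counts it was 2.95-fold lower there, and the exact 95% counting interval reaches to 2.05-fold. BMY1 (Os07g0543100), another beta-amylase gene, had 4 and 6 counts in OsbZIP47KD and 0 and 1 in WT, a ratio of 13.6 with an exact 95% counting interval of 1.93 to 588. The groups of BMY1 and BMY2 did not overlap, and their directions were opposite.

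OsMYBS1 (Os01g0524500) encodes a MYB factor that binds the sugar response element and activates Amy3D in starved rice cells. It had 35 and 54 counts in OsbZIP47KD, against 11 and 10 counts in WT, or 11.0 ± 2.65 CPM in OsbZIP47KD and 2.03 ± 0.0610 CPM in WT (SD, n = 2 each). The groups did not overlap, and OsMYBS1 lay on the same side as Amy3E and opposite to Amy3D. Its log2 fold change was 2.42 ± 0.57 (SE), at an edgeR adjusted p = 0.0863, so it did not pass. It did pass with DESeq2 (adjusted p = 0.0400), edgeR's exact test (0.00577) and no filter (0.0229), and its adjusted p over the 12 alternatives lay between 0.00577 and 0.313. OsMYBS1 was among the genes the study selected on these samples. Together with OsMYBS1, 9 identifiers were taken for regulators of alpha-amylase genes, and the tables used here give a name for OsMYBS1 only. In edgeR's quasi-likelihood test 0 of the 9 passed, beside 0.649% of all tested genes. With p taken unadjusted, 1 was higher and 2 were lower, beside 6.85% and 7.27% of all. DESeq2 and edgeR's exact test each called 1 higher, OsMYBS1, beside 0.55% and 1.4% of all. The other 8 had log2 fold changes between -0.64 and 0.43, with a median of 0.06, beside 0.02 for all tested genes.

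**Figure D4:**
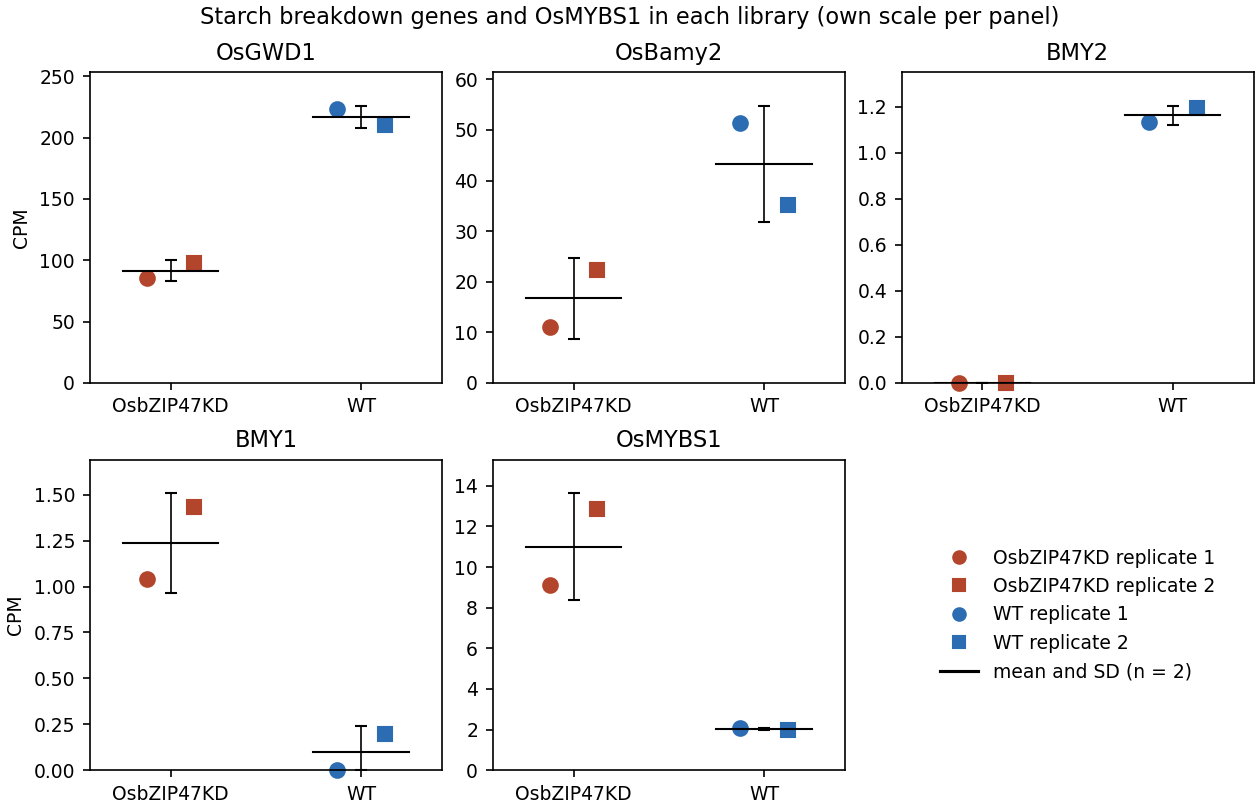
CPM of the 4 listed starch breakdown genes and OsMYBS1 in the OsbZIP47KD libraries (red) and the WT libraries (blue), with a linear axis of its own in each panel. Lines and bars are the mean and SD (n = 2), with bars ended at 0. OsGWD1, OsBamy2 and BMY2 lie lower in OsbZIP47KD, and BMY1 and OsMYBS1 lie higher.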

How the data were processed

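Total RNA of panicles was depleted of ribosomal RNA and sequenced in pairs on an Illumina instrument. Alignment by the authors used STAR (v2.5.3a) and the RAP-DB reference, and they deposited raw counts per gene. The counting program, strand setting and annotation version are not given in the sources used here, so reads of a gene and of its antisense or overlapping partner may be mixed. A deposited table of rescaled counts was not used. Genes were filtered by filterByExpr (minimum count 10, minimum total 15), scaled by TMM and compared with the robust quasi-likelihood test of edgeR (version 4.0.16, under R version 4.3.3), with Benjamini-Hochberg adjustment over 25289 genes and a call at an adjusted p under 0.05. The standard error is the log2 fold change divided by the square root of F. Genes under the filter were pooled per group, with exact binomial 95% intervals and a floor of 3 counts over a group. The p-values rest on the spread between 2 libraries per group, with the spread of each gene drawn toward that of all tested genes.

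The members and lists were chosen with earlier results of these data known. Named genes were the 7 members, OsbZIP47, up to 6 genes per list, the models next to a member, called neighbours within 5 identifiers, and the 5 genes nearest to Amy3D and Amy3B. Markers, and neighbours or list genes outside that rule, were named after their values were seen. The 8 regulators without a name in these tables are given as a range. Names came from the supplement of the study, and 6 of the 7 members matched RefSeq (assembly ASM3414082v1) by symbol. RAP identifiers are not paired with RefSeq there, so no coordinates are given. Alpha-amylase inhibitors were looked for only in the gene descriptions of the supplement of the study, where 0 genes matched. Alternatives were RLE, upper quartile and library total scaling, a filter at 1 CPM in 2 libraries or none, the exact test of edgeR, DESeq2 (version 1.42.0), the replicate number as a block and each library left out.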

Additional observations from a re-analysis of the deposited data

How the results depend on the processing

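Amy3D stayed lower in OsbZIP47KD in all 12 alternatives, with log2 fold changes of -4.89 to -2.88. Since the members were chosen on this contrast, these values and the calls of members are a description only. The number of members called was 1 with each scaling, the filter at 1 CPM, DESeq2, the exact test and the replicate block. It was 2 with no filter, where Amy3E was called higher, beside 236 higher calls among 36702 genes. Amy3E, at 2.09 and 5.25 CPM in OsbZIP47KD, was also tested with the filter at 1 CPM in 2 libraries. Of the 4 members tested there, 1 was called lower and 0 higher. Among all genes, 164 were called, against 787 with no filter, 437 with DESeq2, 795 with the exact test, 596 with the replicate block, and 70 to 1232 with 1 library left out. The share of calls that were higher was 19.5%, and it was 28.4% with upper quartile scaling, 30.1% with library totals only, 30.0% with no filter and 44.6% with the exact test. Upper quartile scaling put the median log2 fold change of all genes at 0.11, against 0.02. Starch breakdown genes called numbered 1, against 2 with no filter or the exact test and 0 to 2 with 1 library left out. Regulators called numbered 0, against 2 with no filter, 1 with DESeq2, 1 with the exact test, 1 with the replicate block (OsMYBS1, adjusted p = 0.0461) and 0 to 1 with 1 library left out. Neighbours called numbered 3, against 4 with no filter. The floor ratio of Amy3E was 6.46 to 19.3-fold with 1 library left out, where the floor stayed at 3 counts. A group reduced to 1 library took its spread from the other group. The numbers do not pair the samples by the labels, and deviations of same-numbered libraries correlated with r = 0.0381 across genes, which are not independent replicates. Apart from the floor ratios without a WT library, which the floor sets, the causes of these changes were not tested. Motif, protein and length comparisons were not run for lack of sequences. At this depth 5 of the 7 genes had too few counts for a fitted value.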

Other observations

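In a search of the whole table for genes whose count lay within 5% or 1 count of a given gene in each of the 4 libraries, ERF103 was the only match to Os08g0473800, the model before Amy3D, and Os08g0473800 the only match to ERF103. These models carry identifiers of chromosomes 8 and 2. Their counts were 10 and 10 in OsbZIP47KD replicate 1, 3 and 3 in OsbZIP47KD replicate 2, 166 and 174 in WT replicate 1 and 97 and 98 in WT replicate 2, with Os08g0473800 first. Amy3D and ERF104 had no such match. Whether reads of one are counted for the other was not tested.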
